A study of Mus musculus with 8 samples.

Results

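The genes of the mouse major histocompatibility complex (MHC) and of antigen processing were described in the distal colon, in WT and *Hsf1* null mice. Members were chosen by symbol from the deposited table of read counts: the 24 symbols that start with *H2-*, and the 10 genes *B2m*, *Tap1*, *Tap2*, *Tapbp*, *Cd74*, *Ciita*, *Nlrc5*, *Psmb8*, *Psmb9* and *Psmb10*. They made up 34 of the 15859 genes in the table. By role they were 2 classical class I genes, 8 genes of class I assembly and peptide supply, 11 non-classical class I genes, 10 class II genes, 2 partners of class II and *H2-Ke6*, which is named for its place in the MHC but does not encode an MHC molecule. A filter on low counts (mean normalized count above 5) left 33 of the 34 for testing, all but the non-classical gene *H2-T3*.

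Polyadenylated RNA from colon tissue of 8 male mice was sequenced, 2 mice in each of 4 groups. The study asked whether protein changes in a model of inflammation-driven cancer also appear in RNA, with and without the transcription factor HSF1. WT day 0 and *Hsf1* null day 0 mice were untreated and age-matched. WT day 15 and *Hsf1* null day 15 mice had received the carcinogen azoxymethane (AOM) at 10 mg/kg, injected intraperitoneally at 8 weeks of age, and a week later drinking water with 1.5% dextran sulfate sodium (DSS) for 5 days, an agent that damages the epithelium. *Hsf1* null mice and WT littermates of all groups were BALB/c x 129SvEV, and the labels give their age as 10 weeks. The null allele is carried by every cell of the animal, epithelium, stroma and immune cells alike. Titles and methods place the treated mice at day 15 after AOM, whereas the protocol in the labels reads as ending directly after DSS. The name day 15 is kept here. Each sample was a separate mouse by its label, and p-values measure the spread between mice. The libraries held 9393945 and 2553348 counts in WT day 0, 12440257 and 2675976 in *Hsf1* null day 0, 11097367 and 9247665 in WT day 15, and 7379442 and 7593259 in *Hsf1* null day 15, for replicates 1 and 2 in that order. Pairs of values below follow the same order, in CPM, a gene's counts relative to its library, scaled by edgeR's trimmed mean (TMM).

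MHC class I molecules stand on nearly all nucleated cells and display peptides made in the cytosol to CD8 T cells, while non-classical forms vary less between individuals and have restricted ligands and tissues. Class II molecules are made mainly by B cells, dendritic cells and macrophages, and by epithelium exposed to interferon gamma, and they display peptides from endosomes to CD4 T cells. In the gut both classes take part in tolerance to food and microbes and in the response to injury, and interferon gamma raises the transcription of both.

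*Hsf1*, the targeted gene, was at 40.5 and 36.5 in WT day 0, 14.0 and 11.9 in *Hsf1* null day 0, 50.5 and 45.9 in WT day 15 and 13.5 and 9.09 in *Hsf1* null day 15. Every WT mouse lay above every *Hsf1* null mouse, and counts remained in the nulls. The difference between genotypes was 2.10 ± 0.30, adjusted p = 0.0137 at day 15 (log2 fold change ± SE, edgeR quasi-likelihood test with Benjamini-Hochberg adjustment over all tested genes), and 1.57 ± 0.30, adjusted p = 0.775 at day 0, while DESeq2 called the gene at both days. Throughout, a gene is called where its log2 fold change lies outside -1 to 1 and the adjusted p of this test is below 0.05. Only called genes are said to rise or fall. The colon epithelium was represented in every library: the 9 epithelial markers summed to 11138 and 16521 in WT day 0, 20788 and 17005 in *Hsf1* null day 0, 10463 and 13801 in WT day 15 and 24284 and 18575 in *Hsf1* null day 15, led by *Krt8*, and none was at 0.

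Replicate 2 of WT day 15 stood apart from the other libraries in these genes. It held the highest CPM of all 8 mice for 24 of the 34 members, including 10 of 10 class II genes, and in 30 of the 33 tested members it lay above replicate 1 of its group, by a median of 2.35-fold, while 50.4% of all tested genes did. *Hsf1* null day 15 was as one-sided in the other direction: replicate 2 lay above replicate 1 in 3 of 33, at a median ratio of 0.675, beside 52% of all tested genes. Without that replicate 1, 10 of the 11 null calls given below were lost. *Hsf1* null day 0 replicate 2, among the 2 smallest libraries, held the lowest value for 21 of the 34. In WT day 0 the order was the opposite of that in WT day 15. Replicate 2 lay below replicate 1 for 12 of 12 class II genes and partners, by a median ratio of 0.356. The same held for 12 of 12 in *Hsf1* null day 0, by a median ratio of 0.539. Of all tested genes, 48.7% in WT day 0 and 49% in *Hsf1* null day 0 were higher in replicate 2. These replicates were the 2 smallest libraries.

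Markers of immune cells differed between the same mice. The 8 B cell markers, led by *Cd79a*, summed to 284 and 59.6 in WT day 0, 154 and 21.2 in *Hsf1* null day 0, 489 and 1171 in WT day 15 and 278 and 334 in *Hsf1* null day 15 CPM. *Pax5* was at 0 in *Hsf1* null day 0 replicate 2. The 3 leukocyte markers (*Ptprc*, *Laptm5*, *Coro1a*; *Laptm5* the most abundant) summed to 260.0 and 83.4 in WT day 0, 119 and 72.9 in *Hsf1* null day 0, 475 and 886 in WT day 15 and 242 and 315 in *Hsf1* null day 15. In both lists, replicate 2 of WT day 15 was the highest mouse and replicate 2 of *Hsf1* null day 0 the lowest, as in the sum of class II genes and partners. The 10 macrophage markers, led by *Lyz2*, summed to 1149 and 505 in WT day 0, 529 and 635 in *Hsf1* null day 0, 1542 and 2387 in WT day 15 and 425 and 938 in *Hsf1* null day 15. WT day 15 was highest, and the nulls of the 2 days overlapped. The 8 dendritic cell markers in the table (of 9 listed), led by *Itgax*, summed to 53.6 and 22.6 in WT day 0, 34.2 and 32.3 in *Hsf1* null day 0, 65.9 and 129 in WT day 15 and 50.1 and 80.5 in *Hsf1* null day 15. The 7 T cell markers, led by *Lck*, summed to 55.5 and 19.5 in WT day 0, 25.3 and 12.2 in *Hsf1* null day 0, 108 and 191 in WT day 15 and 53.2 and 86.1 in *Hsf1* null day 15. *Clec9a* and *Cd5* were at 0 in WT day 0 replicate 2. In bulk tissue, fewer cells of a type and less RNA per cell cannot be told apart, and the part of these cell types in the results below was not tested.

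**Figure D1:**
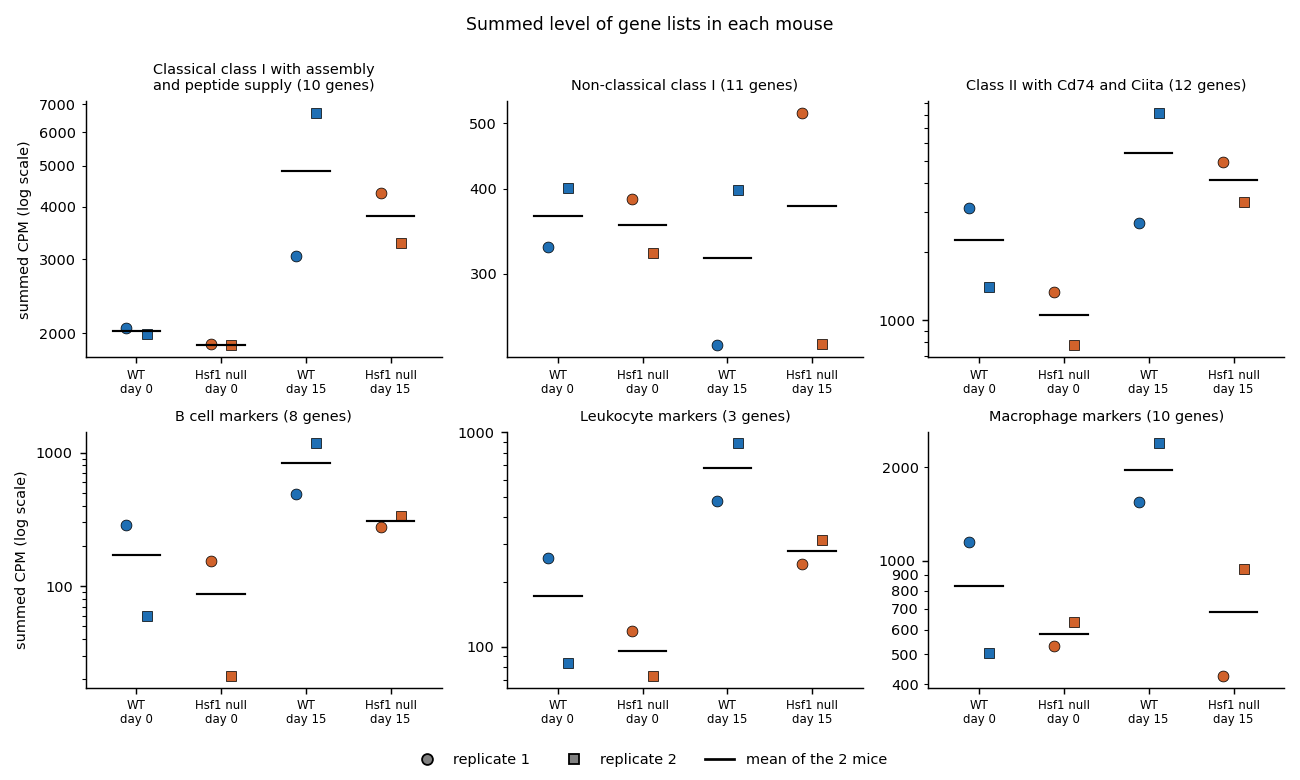
Summed CPM (y axis, log scale) of 3 groups of MHC genes and 3 lists of cell markers in each of the 8 mice, by group (x axis); circles are replicate 1, squares replicate 2, bars the mean of the 2 mice. Replicate 2 of WT day 15 is the highest mouse in every panel but that of non-classical class I, where *Hsf1* null day 15 replicate 1 is highest at 517 CPM.

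Levels of different genes were compared per kilobase of annotated exon. In WT day 0 the most abundant members on this scale were *B2m*, the light chain shared by class I molecules, at 1099 and 1221 CPM per kb, and *Cd74*, the invariant chain that guards the class II groove, at 919 and 447. *H2-Ea-ps* stood at 305 and 144, *H2-Aa* at 174 and 75.7, *H2-D1* at 133 and 98.4 and *H2-K1* at 85.0 and 78.0 CPM per kb. *B2m* lay above *Cd74*, *Cd74* above *H2-Ea-ps* and *H2-D1* above *H2-K1* without overlap between mice, while the other neighbours in this order overlapped. *B2m* exceeded both classical heavy chains in each of the 8 mice. The transactivators were rare, with *Ciita* at 2.73 and 0.500 and *Nlrc5* at 1.57 and 0.421 CPM per kb, and *H2-T3* stood at 0.0719 and 0.582, from 2 and 4 counts.

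From day 0 to day 15, 3 of the 33 tested members were called in WT mice, 2 higher and 1 lower, beside 7.74% of all tested genes called in either direction and 3.47% called higher. In *Hsf1* null mice 11 of 33 were called, all higher, beside 11.8% of all tested genes in either direction and 5.3% higher. By this call the WT share was near the background and the null share was above it. At an unadjusted p under 0.05 there were 19 of 33 members in WT and 16 of 33 in the nulls, beside 27.6% and 32.6% of all tested genes. By that measure the share was above the background in both genotypes. The median log2 fold change over the 33 members was 1.18 in WT and 1.24 in *Hsf1* null mice, against 0.00 and 0.05 over all tested genes. With single mice of the comparison left out, the median over members ranged from 0.27 (without WT day 15 replicate 2) to 1.72 (without WT day 15 replicate 1) in WT. In the nulls it ranged from 0.99 (without *Hsf1* null day 15 replicate 1) to 1.89 (without *Hsf1* null day 0 replicate 1). Both day 15 mice lay above both day 0 mice for 14 of 33 members in WT and 25 of 33 in *Hsf1* null mice, where 31% of all tested genes did so in WT and 31% in the nulls. The 2 comparisons share no mice, but share the estimate of the spread.

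The WT count moved with single mice and with the tool. It was 0 without WT day 0 replicate 2 or WT day 15 replicate 2, 2 without WT day 0 replicate 1, 11 without WT day 15 replicate 1, and 14 with DESeq2. Calls over all genes in WT were 1112, and in the same settings 122, 113, 486, 786 and 1735 (12.1% with DESeq2). The null count was 4 and 0 without replicates 1 and 2 of *Hsf1* null day 0, 1 and 3 without replicates 1 and 2 of *Hsf1* null day 15, and 14 with DESeq2. Calls over all genes in the nulls were 1692, and in these settings 1889, 0, 483, 348 and 2190 (15.2% with DESeq2). Without both of the smallest libraries, replicates 2 of the day 0 groups, both counts of members were 0, with 4 calls over all genes in WT and 0 in the nulls. That fit leaves 1 mouse in each day 0 group and assumes that it varies like the others.

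**Figure D2:**
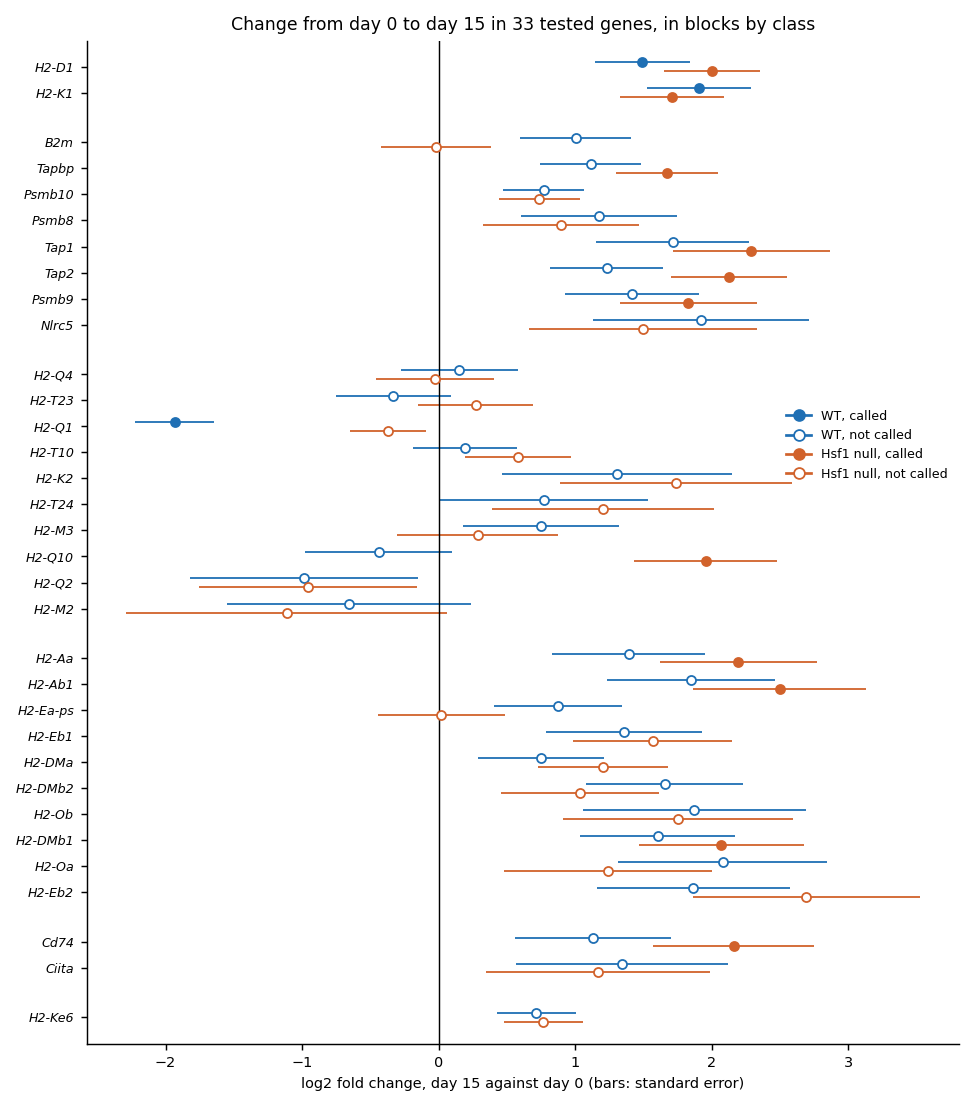
Log2 fold change from day 0 to day 15 (x axis) of the 33 tested members (y axis), in blocks by class and by mean CPM within a block; blue is WT, orange *Hsf1* null, bars are standard errors from 2 mice per group, and filled points are called. Filled points are 3 in WT and 11 in *Hsf1* null mice; most class I and class II genes lie right of 0, and the non-classical block lies on both sides.

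The classical class I heavy chains rose in both genotypes. *H2-K1*, which encodes the K heavy chain, was at 249.8 and 229 in WT day 0, 217 and 172 in *Hsf1* null day 0, 582 and 1214 in WT day 15 and 779 and 493 in *Hsf1* null day 15 CPM. All day 15 mice lay above all day 0 mice. The log2 fold change was 1.91 ± 0.38, adjusted p = 0.0210 in WT and 1.71 ± 0.38, adjusted p = 0.0247 in *Hsf1* null mice. *H2-D1*, the D heavy chain, was at 342 and 254 in WT day 0, 326 and 185 in *Hsf1* null day 0, 686 and 991 in WT day 15 and 1102 and 948 in *Hsf1* null day 15 CPM. Here too the days did not overlap, and the highest mouse was an *Hsf1* null mouse of day 15. *H2-D1* rose by 1.49 ± 0.35, adjusted p = 0.0321 in WT and by 1.999 ± 0.35, adjusted p = 0.0152 in *Hsf1* null mice. Without WT day 0 replicate 1, WT day 0 replicate 2 or WT day 15 replicate 2, neither gene was called in WT. Their log2 fold changes over all settings lay between 1.202 and 2.34 there. In the nulls *H2-K1* was not called without *Hsf1* null day 0 replicate 1, *Hsf1* null day 0 replicate 2 or *Hsf1* null day 15 replicate 1, and *H2-D1* was not called without *Hsf1* null day 0 replicate 2.

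*B2m* was at 946 and 1049.7 in WT day 0, 914 and 1155 in *Hsf1* null day 0, 1153 and 2851 in WT day 15 and 1087 and 949.9 in *Hsf1* null day 15 CPM. WT day 15 replicate 2 stood far above the other 7 mice, which lay between 914 and 1155. *B2m* was not called, at 1.00 ± 0.41, adjusted p = 0.144 in WT and -0.02 ± 0.40, adjusted p = 0.976 in *Hsf1* null mice. Within a library, the ratio of *B2m* to *H2-K1* counts was 3.78 and 4.58 in WT day 0, 4.20 and 6.72 in *Hsf1* null day 0, 1.98 and 2.35 in WT day 15 and 1.40 and 1.93 in *Hsf1* null day 15. The ratio was lower in every day 15 mouse than in every day 0 mouse.

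Of the 8 genes of class I assembly and peptide supply, 4 rose in *Hsf1* null mice, beside 5.3% of all tested genes called higher. TAP1 and TAP2 form the transporter that carries peptides from the cytosol into the endoplasmic reticulum. *Tap1* was at 66.7 and 39.3 in WT day 0, 33.4 and 19.4 in *Hsf1* null day 0, 71.8 and 281 in WT day 15 and 157 and 107 in *Hsf1* null day 15 CPM. *Tap2* was at 40.7 and 37.3 in WT day 0, 37.1 and 20.5 in *Hsf1* null day 0, 57.8 and 126 in WT day 15 and 159 and 98.4 in *Hsf1* null day 15 CPM. For both genes the day 15 mice of each genotype lay above its day 0 mice, although WT day 15 replicate 1 lay close to WT day 0 in *Tap1*. *Tap1* rose by 2.29 ± 0.58, adjusted p = 0.0330 in the nulls and stood at 1.71 ± 0.56, adjusted p = 0.0842 in WT. *Tap2* rose by 2.13 ± 0.42, adjusted p = 0.0195 in the nulls and stood at 1.23 ± 0.41, adjusted p = 0.0900 in WT.

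Tapasin, the product of *Tapbp*, bridges empty class I molecules to the transporter. *Tapbp* was at 179 and 183 in WT day 0, 184 and 124 in *Hsf1* null day 0, 256 and 527 in WT day 15 and 579 and 402 in *Hsf1* null day 15 CPM. The days did not overlap in either genotype. It rose in *Hsf1* null mice (1.67 ± 0.37, adjusted p = 0.0245) and was not called in WT (1.11 ± 0.37, adjusted p = 0.0865). *Psmb8*, *Psmb9* and *Psmb10* encode the catalytic subunits that turn the proteasome into the immunoproteasome, whose products suit the class I groove. *Psmb9* was at 36.7 and 31.8 in WT day 0, 23.0 and 20.8 in *Hsf1* null day 0, 40.4 and 143 in WT day 15 and 94.3 and 62.1 in *Hsf1* null day 15 CPM. All day 15 mice of a genotype lay above its day 0 mice. It rose in the nulls (1.83 ± 0.50, adjusted p = 0.0421), and stood at 1.42 ± 0.49, adjusted p = 0.0985 in WT.

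*Psmb8* and *Psmb10* were called in neither genotype. *Psmb8* was at 92.2 and 55.6 in WT day 0, 48.4 and 78.7 in *Hsf1* null day 0, 68.1 and 269 in WT day 15 and 152 and 81.9 in *Hsf1* null day 15 CPM. The days overlapped in WT, and its log2 fold change was 1.18 ± 0.57 in WT and 0.89 ± 0.57 in *Hsf1* null mice. *Psmb10* was at 90.6 and 113 in WT day 0, 92.7 and 93.8 in *Hsf1* null day 0, 134 and 213 in WT day 15 and 186 and 125 in *Hsf1* null day 15 CPM. The days did not overlap, with log2 fold changes of 0.77 ± 0.30 and 0.74 ± 0.30. NLRC5 is the transactivator of class I genes. *Nlrc5* was at 13.3 and 3.57 in WT day 0, 5.09 and 2.52 in *Hsf1* null day 0, 10.9 and 58.2 in WT day 15 and 16.0 and 7.22 in *Hsf1* null day 15 CPM. It spread widely in WT day 15 and was not called (1.92 ± 0.79 and 1.49 ± 0.83). In WT none of the 8 genes was called by edgeR, beside 7.74% of all tested genes. At an unadjusted p under 0.05 there were 7, beside 27.6%, and DESeq2 called 6 of the 8, beside 12.1%. Without WT day 15 replicate 1 edgeR called all of them but *Psmb10*. The 4 calls in the nulls were all lost without *Hsf1* null day 0 replicate 2 or without *Hsf1* null day 15 replicate 1. Also lost were those of *Tap1*, *Tapbp* and *Psmb9* without *Hsf1* null day 15 replicate 2, those of *Tap1* and *Psmb9* without *Hsf1* null day 0 replicate 1, and that of *Psmb9* without either WT day 0 mouse, while their log2 fold changes lay between 1.38 and 2.77.

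*Psmb5*, *Psmb6* and *Psmb7* encode the constitutive subunits that the inducible ones replace. None of the 3 was called by edgeR or DESeq2 in either genotype. At an unadjusted p under 0.05 there were 1 in WT and 2 in the nulls, beside the shares of all tested genes given above. The ratio of *Psmb9* to *Psmb6* counts was 0.608 and 0.419 in WT day 0, 0.303 and 0.395 in *Hsf1* null day 0, 0.359 and 1.43 in WT day 15 and 0.861 and 0.715 in *Hsf1* null day 15. It was higher at day 15 in both null mice and in WT replicate 2, and lower than either WT day 0 mouse in WT day 15 replicate 1. The ratio of *Psmb10* to *Psmb7* was 1.26 and 1.31 in WT day 0, 1.29 and 1.07 in *Hsf1* null day 0, 1.63 and 2.48 in WT day 15 and 4.43 and 2.26 in *Hsf1* null day 15. It was higher in every day 15 mouse than in every day 0 mouse. The ratio of *Psmb8* to *Psmb5* was 4.44 and 1.54 in WT day 0, 1.83 and 4.13 in *Hsf1* null day 0, 1.88 and 7.36 in WT day 15 and 6.18 and 3.75 in *Hsf1* null day 15. It overlapped between days in both genotypes.

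**Figure D3:**
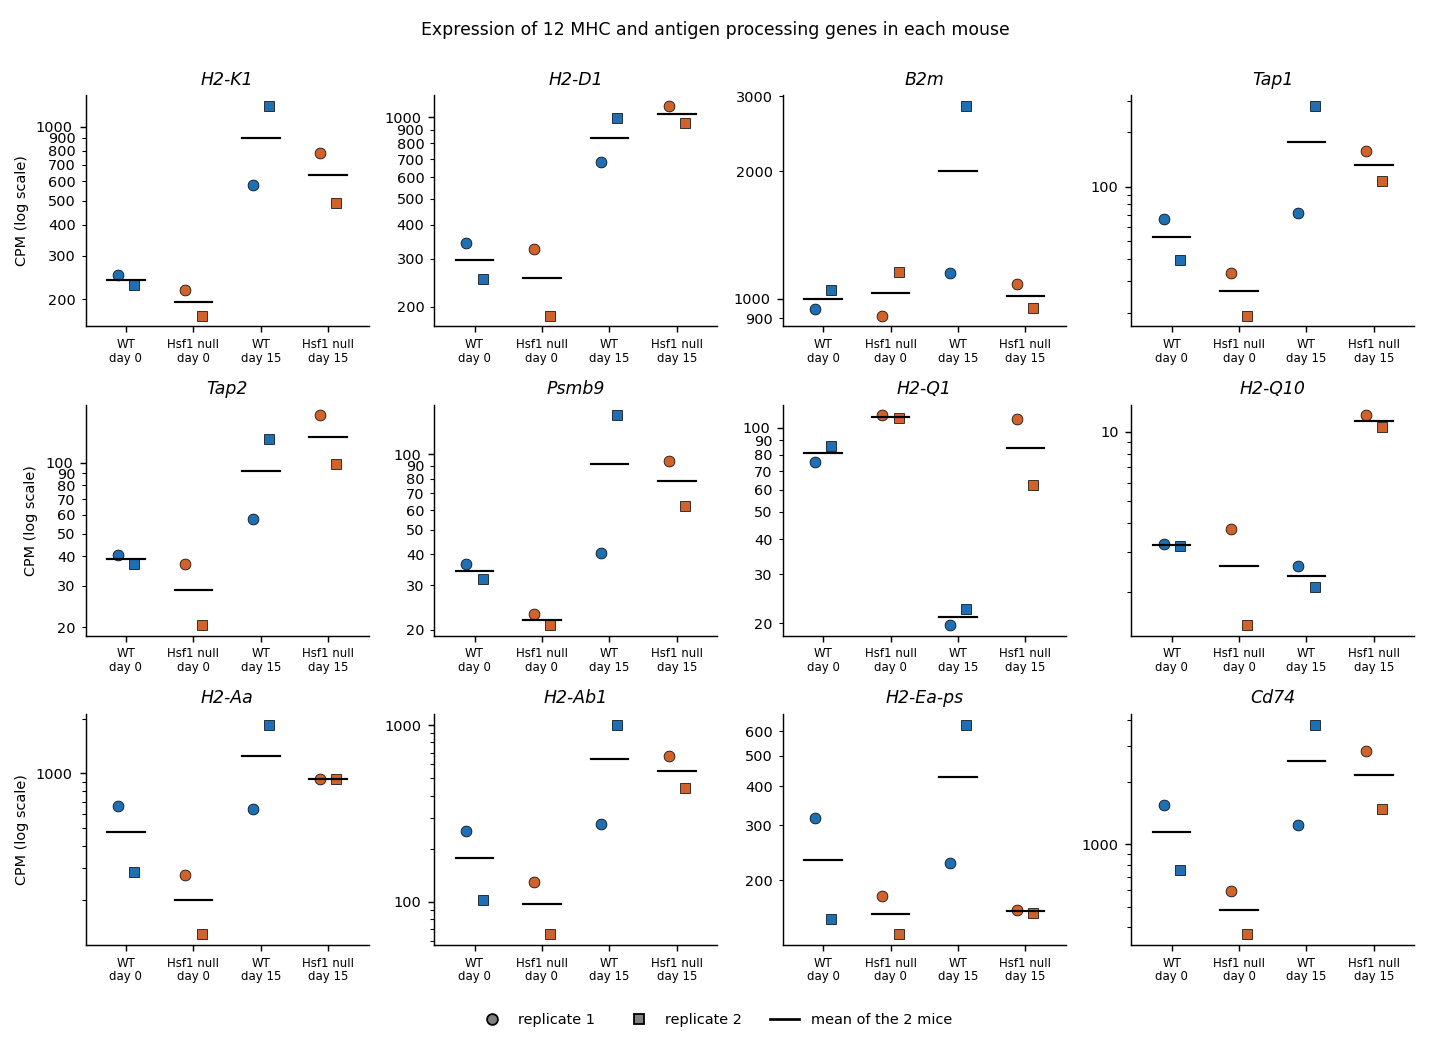
CPM (y axis, log scale) of 12 members in each of the 8 mice, by group (x axis); circles are replicate 1, squares replicate 2, bars the mean of the 2 mice. *H2-K1* and *H2-D1* separate day 0 from day 15 in both genotypes, *H2-Q1* is low in the 2 WT day 15 mice (19.7 and 22.5 CPM), and *H2-Q10* is high in the 2 *Hsf1* null day 15 mice (11.8 and 10.4 CPM).

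The non-classical class I genes did not move together. Of 10 tested, 1 fell in WT and 1 rose in the nulls, beside 7.74% and 11.8% of all tested genes called in either direction, so the class did not stand out from the background. Their median log2 fold change was -0.09 in WT and 0.28 in the nulls, and from -0.42 to 0.22 and from -0.53 to 0.79 with single mice left out. *H2-Q1*, a gene of the Qa region, was at 75.6 and 86.2 in WT day 0, 111 and 108 in *Hsf1* null day 0, 19.7 and 22.5 in WT day 15 and 107 and 62.2 in *Hsf1* null day 15 CPM. The WT day 15 mice were the 2 lowest of the 8, and no other group overlapped them; in the nulls day 15 lay below day 0. *H2-Q1* fell in WT (-1.93 ± 0.29, adjusted p = 0.00848) and was not called in *Hsf1* null mice (-0.37 ± 0.28, adjusted p = 0.381). Leaving out WT day 0 replicate 2 or WT day 15 replicate 2 ended the WT call.

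*H2-Q10* encodes a secreted class I molecule known mostly from liver. It was at 3.23 and 3.18 in WT day 0, 3.78 and 1.44 in *Hsf1* null day 0, 2.61 and 2.11 in WT day 15 and 11.8 and 10.4 in *Hsf1* null day 15 CPM, from 4 to 78 counts per library. The *Hsf1* null day 15 mice were the 2 highest, and the other 6 mice lay together at a low level. *H2-Q10* rose in the nulls (1.95 ± 0.52, adjusted p = 0.0393) and was not called in WT (-0.44 ± 0.54, adjusted p = 0.633). Leaving out any mouse but those of WT day 15 and *Hsf1* null day 0 replicate 1 ended the call in the nulls.

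The other non-classical genes were called in neither genotype. *H2-Q4*, the highest of them in CPM, was at 111 and 169 in WT day 0, 136 and 110.0 in *Hsf1* null day 0, 119.5 and 190.4 in WT day 15 and 176 and 65.4 in *Hsf1* null day 15 CPM. *H2-T23*, whose product Qa-1 presents leader peptides of other class I molecules to natural killer cells, was at 95.6 and 115 in WT day 0, 107 and 76.9 in *Hsf1* null day 0, 62.8 and 104 in WT day 15 and 161 and 61.9 in *Hsf1* null day 15 CPM. The days overlapped for both. *H2-T10*, whose product is recognized by gamma delta T cells, was at 14.2 and 11.1 in WT day 0, 11.1 and 8.62 in *Hsf1* null day 0, 11.2 and 18.2 in WT day 15 and 17.2 and 12.7 in *Hsf1* null day 15 CPM. The pseudogene *H2-K2* was at 7.15 and 6.35 in WT day 0, 7.88 and 1.08 in *Hsf1* null day 0, 5.22 and 28.6 in WT day 15 and 23.3 and 10.8 in *Hsf1* null day 15 CPM. For these 2 genes the days overlapped in WT and did not in the nulls. *H2-M3*, which presents formylated bacterial peptides, was at 7.84 and 3.18 in WT day 0, 5.01 and 4.31 in *Hsf1* null day 0, 7.66 and 12.04 in WT day 15 and 8.22 and 3.34 in *Hsf1* null day 15 CPM. The days overlapped in both genotypes. *H2-T24*, *H2-M2* and *H2-Q2* were lower in mean CPM than *H2-K2*, with log2 fold changes between -1.11 and 1.204 over both genotypes. *H2-T3*, the thymus leukemia antigen known from intestinal epithelium, had 2 to 8 counts in each library and was not tested.

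Some class II genes rose in *Hsf1* null mice, and none was called in WT. Of the 10 genes, 3 were called in the nulls and 0 in WT by edgeR, while 6 and 8 had an unadjusted p under 0.05 and DESeq2 called 6 and 5, beside the shares of all tested genes given above. The median log2 fold change was 1.63 in WT and 1.66 in *Hsf1* null mice. The WT median was 2.72 and 1.08 without replicates 1 and 2 of WT day 0, and 2.07 and 0.52 without those of WT day 15. The null median was 2.55 and 1.16 without replicates 1 and 2 of *Hsf1* null day 0, and 1.46 and 1.65 without those of *Hsf1* null day 15. *H2-Aa* and *H2-Ab1* encode the chains of I-A, the main class II molecule. *H2-Aa* was at 661 and 287 in WT day 0, 274 and 129.7 in *Hsf1* null day 0, 633 and 1858 in WT day 15 and 930.3 and 927 in *Hsf1* null day 15 CPM. In WT the days overlapped, since day 0 replicate 1 lay above day 15 replicate 1. In the nulls they did not. *H2-Aa* rose by 2.20 ± 0.57, adjusted p = 0.0370 in *Hsf1* null mice and stood at 1.39 ± 0.56, adjusted p = 0.142 in WT. *H2-Ab1* was at 253 and 102 in WT day 0, 129 and 65.4 in *Hsf1* null day 0, 278 and 1009 in WT day 15 and 667 and 439 in *Hsf1* null day 15 CPM. The days did not overlap in either genotype. *H2-Ab1* rose by 2.50 ± 0.63, adjusted p = 0.0343 in the nulls and stood at 1.85 ± 0.62, adjusted p = 0.0893 in WT.

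*H2-Eb1* and *H2-Ea-ps* stand for the chains of I-E, the other class II molecule. *H2-Eb1* was at 147 and 60.3 in WT day 0, 75.3 and 34.1 in *Hsf1* null day 0, 133 and 404 in WT day 15 and 194 and 136 in *Hsf1* null day 15 CPM. The days overlapped in WT but not in the nulls. It was not called (1.35 ± 0.57, adjusted p = 0.159 in WT, 1.57 ± 0.58, adjusted p = 0.0961 in *Hsf1* null mice). *H2-Ea-ps* was at 316 and 149.7 in WT day 0, 178 and 134 in *Hsf1* null day 0, 227 and 629.8 in WT day 15 and 161 and 157 in *Hsf1* null day 15 CPM. Its null mice were alike on both days, while WT day 15 replicate 2 was the highest mouse. *H2-Ea-ps* was not called, at 0.87 ± 0.47, adjusted p = 0.255 in WT and 0.02 ± 0.47, adjusted p = 0.981 in *Hsf1* null mice. The ratio of *H2-Ea-ps* to *H2-Eb1* counts was 2.14 and 2.48 in WT day 0, 2.37 and 3.93 in *Hsf1* null day 0, 1.71 and 1.56 in WT day 15 and 0.829 and 1.16 in *Hsf1* null day 15. It was lowest in the *Hsf1* null day 15 mice, and every day 15 mouse lay below every day 0 mouse. The suffix -ps marks a pseudogene in the reference strain C57BL/6, in which the alpha chain of I-E is not expressed, whereas other strains express it. The parent strains of these mice carry different MHC haplotypes. The haplotype of each mouse is not given in the sources used here, and its part in this ratio was not tested.

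*H2-DMa*, *H2-DMb1* and *H2-DMb2* encode H2-M, which exchanges peptides in the class II groove, and *H2-Oa* and *H2-Ob* encode H2-O, its inhibitor, which is made mainly by B cells. *H2-DMb1* was at 16.96 and 5.16 in WT day 0, 5.42 and 4.67 in *Hsf1* null day 0, 21.1 and 50.5 in WT day 15 and 27.9 and 15.2 in *Hsf1* null day 15 CPM. The days did not overlap in either genotype. It rose in the nulls (2.07 ± 0.60, adjusted p = 0.0498), and stood at 1.60 ± 0.57, adjusted p = 0.104 in WT. The call was lost when libraries were thinned to the smallest, the only 1 of the 11 null calls that was. *H2-DMa* was at 73.7 and 31.0 in WT day 0, 25.7 and 21.9 in *Hsf1* null day 0, 55.1 and 124 in WT day 15 and 67.8 and 42.8 in *Hsf1* null day 15 CPM. *H2-DMb2* was at 30.2 and 7.54 in WT day 0, 17.9 and 7.55 in *Hsf1* null day 0, 43.7 and 82.0 in WT day 15 and 28.9 and 25.9 in *Hsf1* null day 15 CPM. The nulls of the 2 days did not overlap for either gene. Neither was called, with log2 fold changes of 1.204 ± 0.48 and 1.04 ± 0.58 in the nulls and 0.75 ± 0.46 and 1.66 ± 0.57 in WT. *H2-Oa* was at 10.4 and 2.38 in WT day 0, 8.54 and 1.08 in *Hsf1* null day 0, 17.7 and 41.8 in WT day 15 and 11.9 and 14.0 in *Hsf1* null day 15 CPM. *H2-Ob* was at 20.1 and 5.96 in WT day 0, 9.36 and 1.80 in *Hsf1* null day 0, 18.3 and 83.2 in WT day 15 and 13.2 and 29.3 in *Hsf1* null day 15 CPM. Their order over the mice was near that of the B cell markers. WT day 15 replicate 2 was highest, as in 10 of 10 class II genes, and *Hsf1* null day 0 replicate 2 lowest, as in 9 of 10. Neither *H2-Oa* nor *H2-Ob* was called, at 2.08 ± 0.76 and 1.87 ± 0.82 in WT and 1.24 ± 0.76 and 1.75 ± 0.84 in the nulls. *H2-Eb2*, a little expressed beta chain gene, was at 3.82 and 0.794 in WT day 0, 0.821 and 0.359 in *Hsf1* null day 0, 5.48 and 13.9 in WT day 15 and 3.41 and 5.62 in *Hsf1* null day 15 CPM. It had 1 count in the lowest library and was not called (1.86 ± 0.71 and 2.69 ± 0.83).

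Of the partners of class II, *Cd74* rose in *Hsf1* null mice. It was at 1543 and 751 in WT day 0, 597 and 368 in *Hsf1* null day 0, 1243 and 3786 in WT day 15 and 2829 and 1489.8 in *Hsf1* null day 15 CPM. In WT, day 0 replicate 1 lay above day 15 replicate 1, so that the days overlapped, and in the nulls they did not. *Cd74* rose by 2.16 ± 0.59, adjusted p = 0.0413 in the nulls and stood at 1.13 ± 0.57, adjusted p = 0.229 in WT. CIITA is the transactivator on which class II transcription depends. *Ciita* was at 26.1 and 4.76 in WT day 0, 8.05 and 7.19 in *Hsf1* null day 0, 12.3 and 71.3 in WT day 15 and 19.5 and 14.98 in *Hsf1* null day 15 CPM. The days overlapped in WT and not in the nulls, and the gene was not called (1.34 ± 0.78 and 1.16 ± 0.82). The class II genes and partners together summed to 3101 and 1408 in WT day 0, 1330.0 and 776 in *Hsf1* null day 0, 2688 and 8152 in WT day 15 and 4954 and 3297 in *Hsf1* null day 15 CPM. The calls of *H2-Aa*, *H2-Ab1*, *H2-DMb1* and *Cd74* in the nulls were all lost when any mouse of the 4 in that comparison was left out, with log2 fold changes between 1.57 and 3.08, while in WT *H2-Ab1* was called without WT day 15 replicate 1 and *H2-DMb2* without WT day 0 replicate 1. The B cell markers had 0 calls by edgeR in either genotype. At an unadjusted p under 0.05 there were 6 of 8 in WT and 3 of 8 in the nulls. DESeq2 called 1 and 1, and the shares of all tested genes are given above.

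*H2-Ke6*, which encodes an enzyme of mitochondrial fatty acid synthesis, was at 30.0 and 33.3 in WT day 0, 40.2 and 28.4 in *Hsf1* null day 0, 52.3 and 51.3 in WT day 15 and 71.0 and 46.9 in *Hsf1* null day 15 CPM. The day 15 mice lay above the day 0 mice of their genotype, and the gene was not called (0.71 ± 0.29, adjusted p = 0.144 in WT, 0.77 ± 0.29, adjusted p = 0.100 in *Hsf1* null mice).

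Between genotypes at day 15, 2 of 33 members were called, both lower in WT, beside 3.17% of all tested genes. At an unadjusted p under 0.05 there were 4, beside 23.2%, and DESeq2 called 3, beside 8.19%. Groups did not overlap for 7 of 33 members, 5 higher and 2 lower in WT, beside 54.8% of all tested genes. Both called members were non-classical. *H2-Q1*, at 19.7 and 22.5 CPM in WT and 107 and 62.2 in the nulls, differed by -2.001 ± 0.29, adjusted p = 0.0149 (WT minus *Hsf1* null). *H2-Q10*, at 2.61 and 2.11 CPM in WT and 11.8 and 10.4 in the nulls, differed by -2.22 ± 0.52, adjusted p = 0.0495. This comparison shares its mice with the comparisons between days. With only the 4 mice of day 15 in the fit neither gene was called, and the *H2-Q1* call was also lost without WT day 15 replicate 2, *Hsf1* null day 15 replicate 1 or either *Hsf1* null day 0 mouse. The *H2-Q10* call was lost whichever of the 8 mice was left out.

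No classical class I or class II gene was called between genotypes at day 15. *H2-K1* differed by 0.50 ± 0.37, adjusted p = 0.448 and *H2-D1* by -0.29 ± 0.34, adjusted p = 0.645, with overlap between the genotypes for both. All 12 class II genes and partners had positive estimates, with a median of 0.91 over the 10 class II genes. Of the 10, edgeR called 0, 1 had an unadjusted p under 0.05 and DESeq2 called 1, beside 3.17%, 23.2% and 8.19% of all tested genes. That gene was *H2-Ea-ps*, at 227 and 629.8 CPM in WT and 161 and 157 in the nulls (1.43 ± 0.47, adjusted p = 0.114). Without WT day 15 replicate 2 the class II median was -0.016. Without WT day 15 replicate 1 it was 1.44, and edgeR called *H2-Ea-ps*. *B2m*, at 1153 and 2851 CPM in WT and 1087 and 949.9 in the nulls, was not called (0.97 ± 0.41, adjusted p = 0.188), and its groups did not overlap.

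At day 0, 0 of 33 members were called by edgeR, as were 0% of all tested genes; 2 members had an unadjusted p under 0.05, beside 6.29% of all tested genes, and DESeq2 called 0, beside 0.118%. The WT mice did not overlap the *Hsf1* null mice and lay higher for 8 of 33 members, beside 18.4% of all tested genes. The 8 were *H2-K1*, *Tap1*, *Tap2*, *Psmb9*, *H2-T10*, *H2-Aa*, *H2-DMa* and *Cd74*. They lay lower in WT for 1 of 33 members, beside 2681 of the 14371 tested genes. This was *H2-Q1*, at 75.6 and 86.2 CPM in WT and 111 and 108 in the nulls (-0.44 ± 0.28, adjusted p = 0.833). All 12 class II genes and partners had higher estimates in WT, with a median of 1.02 over the class II genes, and *Cd74* differed by 1.25 ± 0.57, adjusted p = 0.794 and *H2-Aa* by 1.23 ± 0.56, adjusted p = 0.794. The class II median was 0.03 and 1.49 without replicates 1 and 2 of WT day 0, and 1.53 and 0.52 without those of *Hsf1* null day 0. In the same order *Cd74* differed by 0.64, 1.65, 1.64 and 0.94, and *H2-Aa* by 0.50, 1.68, 1.87 and 0.79. The median over all members, 0.42, was 0.12, 0.71, 0.80 and 0.22. The class II median at day 0 thus rested largely on WT day 0 replicate 1. No member passed the test against the spread between mice. The summed B cell markers of the same mice, 284 and 59.6 CPM in WT and 154 and 21.2 in the nulls, overlapped between genotypes.

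The change from day 0 to day 15 was compared between genotypes by an interaction term. No member was called by edgeR, beside 0.00696% of all tested genes, and none by DESeq2, beside 0.807%. At an unadjusted p under 0.05 there were 2 members, beside 8.62% of all tested genes. These were *H2-Q1* (-1.56 ± 0.40, adjusted p = 0.380) and *H2-Q10* (-2.39 ± 0.75, adjusted p = 0.439), given as the WT change minus the null change. For the others called in the nulls and not in WT the difference was -0.58 ± 0.78 for *Tap1*, -0.90 ± 0.58 for *Tap2*, -0.80 ± 0.78 for *H2-Aa*, -0.65 ± 0.85 for *H2-Ab1* and -1.03 ± 0.80 for *Cd74*. It was -0.56 ± 0.51 for *Tapbp*, -0.41 ± 0.69 for *Psmb9* and -0.47 ± 0.81 for *H2-DMb1*. These 8 differences lay within 2 SE of 0, so a call in the nulls and none in WT does not show that the genotypes differed.

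Other genes of the pathway were counted in the same way. Of 18 genes of class I peptide loading and interferon control, 17 were tested, and edgeR called 0 in WT and 2 in the nulls, 1 higher and 1 lower, beside 7.74% and 11.8% of all tested genes. At an unadjusted p under 0.05 there were 3 and 11 of 17, beside 27.6% and 32.6%, and DESeq2 called 2 and 4, beside 12.1% and 15.2%. *Psme2*, a subunit of the activator that opens the proteasome, was at 119 and 101 in WT day 0, 118 and 98.8 in *Hsf1* null day 0, 156 and 340.5 in WT day 15 and 447 and 399 in *Hsf1* null day 15 CPM. It rose in the nulls (1.959 ± 0.35, adjusted p = 0.0156), and stood at 1.17 ± 0.35, adjusted p = 0.0639 in WT. *Ifngr1*, the ligand-binding chain of the interferon gamma receptor, was at 245 and 379 in WT day 0, 257 and 215 in *Hsf1* null day 0, 180.3 and 156 in WT day 15 and 109.8 and 85.5 in *Hsf1* null day 15 CPM. Day 15 lay below day 0 in both genotypes. The gene fell in the nulls (-1.27 ± 0.28, adjusted p = 0.0238), and stood at -0.89 ± 0.28, adjusted p = 0.0751 in WT. Its partner *Ifngr2* was not called (0.87 ± 0.26, adjusted p = 0.0550 in the nulls, -0.05 ± 0.26, adjusted p = 0.923 in WT). *Ifng* itself had at most 2.85 CPM, in WT day 15 replicate 2, was at 0 in WT day 0 replicate 1 and *Hsf1* null day 0 replicate 2, and was not tested.

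Of 19 listed genes of class II processing and control, 17 were in the table. *Ifi30* was the 1 called in each genotype, beside 7.74% of all tested genes in WT and 11.8% in the nulls. At an unadjusted p under 0.05 there were 6 of 17 in each genotype, beside 27.6% and 32.6%. DESeq2 called 3 in WT and 1 in the nulls, beside 12.1% and 15.2%. *Ifi30* encodes the lysosomal thiol reductase that unfolds antigens for class II. It was at 166 and 173 in WT day 0, 255 and 146 in *Hsf1* null day 0, 343 and 448 in WT day 15 and 472 and 538 in *Hsf1* null day 15 CPM. All day 15 mice lay above all day 0 mice, and the gene rose in WT (1.22 ± 0.30, adjusted p = 0.0387) and in *Hsf1* null mice (1.33 ± 0.30, adjusted p = 0.0260). Of 7 listed class I-like genes outside the *H2-* names, 6 were in the table and 5 were tested. *Fcgrt*, the heavy chain of the neonatal Fc receptor, was at 56.7 and 54.8 in WT day 0, 59.9 and 35.6 in *Hsf1* null day 0, 122 and 90.2 in WT day 15 and 115 and 91.6 in *Hsf1* null day 15 CPM. It rose in the nulls (1.10 ± 0.29, adjusted p = 0.0396), and stood at 0.93 ± 0.29, adjusted p = 0.0780 in WT. EdgeR and DESeq2 each called 0 of these 5 genes in WT and 1 in the nulls. At an unadjusted p under 0.05 there were 2 and 1, beside the shares of all tested genes given above. Between genotypes no gene of the 4 pathway lists was called by edgeR at either day. At day 15, 7 of 17 of class I peptide loading and 3 of 17 of class II processing had an unadjusted p under 0.05, beside 23.2% of all tested genes, and DESeq2 called 2 and 1, beside 8.19%. At day 0, 1 of 17 and 3 of 17 had such a p, beside 6.29%, and DESeq2 called 0.

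Markers of tissue cells were counted by list, beside 7.74% of all tested genes called in WT, 11.8% in the nulls and 3.17% between genotypes at day 15. In the same order the shares were 27.6%, 32.6% and 23.2% at an unadjusted p under 0.05, and 12.1%, 15.2% and 8.19% by DESeq2. Of the 10 macrophage markers 4 rose in WT from day 0 to day 15 (7 at an unadjusted p under 0.05, 6 by DESeq2) and 0 in the nulls (3 and 3, in either direction); later parentheses give the same 2 counts. At day 15, 2 of them, *C1qa* and *C1qb*, were higher in WT than in the nulls (7 and 4). Of the 7 T cell markers 1, *Cd3e*, rose in each genotype (6 and 5 in WT, 5 and 3 in the nulls), as did *Laptm5* among the 3 leukocyte markers (2 and 1 in each). Of the 8 dendritic cell markers *Ccr7* rose in WT (2 and 1) and 0 in the nulls (1 and 0). The 6 smooth muscle markers, led by *Acta2*, summed to 6899 and 9456 in WT day 0, 6756 and 6624 in *Hsf1* null day 0, 3462 and 2025 in WT day 15 and 5013 and 5819 in *Hsf1* null day 15 CPM. Of these 5 fell in WT (6 and 6) and 0 in the nulls (2 and 0). At day 15 edgeR called 0 of the 6 between genotypes (5 and 2). All 6 lay lower in WT without overlap, beside 3774 of the 14371 tested genes. The 5 endothelial markers, led by *Pecam1*, summed to 124 and 70.7 in WT day 0, 86.4 and 112 in *Hsf1* null day 0, 216 and 202 in WT day 15 and 49.5 and 109.8 in *Hsf1* null day 15, and 1, *Cdh5*, was higher in WT at day 15 (2 and 2). Of the 9 epithelial markers 1 fell in WT (1 and 1), while in the nulls 2 fell and 1 rose (4 and 4). At day 15 edgeR called 0 of the 9 between genotypes (2 and 2), and 8 lay lower in WT without overlap. It also called 0 of the B cell (2 and 0), T cell (2 and 0), leukocyte (2 and 1) and dendritic cell markers (2 and 1) there. The part of these tissue cells in the changes of MHC genes was not tested.

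Of the 34 members 29 lie on chromosome 17, between 33915899 and 37483552 on GRCm38 (GENCODE M21), from *Tapbp* to *H2-M2*. *Tapbp* and *H2-K2* lie before *H2-K1* (chr17:33996017-34000347), the class II, transporter and proteasome genes and *H2-Ke6* between it and *H2-D1* (chr17:35262730-35267499), and the Q, T and M genes after *H2-D1*. The other 5, *B2m*, *Nlrc5*, *Psmb10*, *Ciita* and *Cd74*, lie on other chromosomes. *H2-K1*, *H2-D1* and the Q genes are similar in sequence over much of their length, and class I genes differ between strains. The similarity was not measured here. The authors aligned to a C57BL/6 reference, so values of single class I genes, *H2-Q1* and *H2-Q10* included, are uncertain. The use of strand in counting is not given in the sources used here. *Tap1* (chr17:34187553-34197225, plus strand) and *Psmb9* (chr17:34181987-34187764, minus strand) share 212 exon bases, and *H2-DMa* shares 360 with *Brd2*, which lies on the other strand. If strand was not used in counting, reads there could have gone to either gene. In all, 6 members share exon bases with another gene of the table.

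Promoters are shown because members of different classes rose in *Hsf1* null mice. RefSeq promoters on GRCm38.p6 were matched for 24 of the 34 members, and the 250 bases before the start were searched on both strands for 4 motifs. These were GATTGG, the core of the Y box bound by NF-Y, TGACG, the core of the X2 box, GAANNGAAA, a core of interferon response elements, and GAANNTTC, a core of the heat shock element bound by HSF1. GATTGG was found in 14 of 24 members, beside 14.6% of 32851 promoters of the same length, and TGACG in 9 of 24, beside 17.8%. GAANNGAAA was found in 6 of 24, beside 6.31%, and GAANNTTC in 4 of 24, beside 6.69%. By class, GATTGG was in 7 of 8 class II promoters, between 35 and 101 bases before the start. GAANNGAAA was in 2 of 2 classical and 4 of 7 non-classical class I promoters, in 0 of 6 promoters of class I assembly and peptide supply and in 0 of 8 class II promoters. The searched stretches of *Tap1* and *Psmb9* overlap on opposite strands. Their matches to the Y box, X2 box and heat shock element cores are the same sites, counted for each gene. The counts over members and for class I assembly and peptide supply are thus of genes, not of separate sites. A match is a run of letters and not a binding site. The 200 bases upstream of the start are given, 5′ to 3′ on the strand of the gene, for the called members whose stretch overlaps no annotated exon: *H2-K1* (chr17:34000348-34000547, minus strand, the first of 2 listed promoters), *H2-Q10* (chr17:35469889-35470088, plus strand) and *H2-Aa* (chr17:34287824-34288023, minus strand). Capitals mark matches to any of the 4 motifs on either strand, and matches that overlap run together.
H2-K1: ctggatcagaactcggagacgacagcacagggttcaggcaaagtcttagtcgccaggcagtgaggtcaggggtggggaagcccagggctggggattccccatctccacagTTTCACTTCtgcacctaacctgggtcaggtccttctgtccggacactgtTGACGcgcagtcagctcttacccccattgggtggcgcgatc
H2-Q10: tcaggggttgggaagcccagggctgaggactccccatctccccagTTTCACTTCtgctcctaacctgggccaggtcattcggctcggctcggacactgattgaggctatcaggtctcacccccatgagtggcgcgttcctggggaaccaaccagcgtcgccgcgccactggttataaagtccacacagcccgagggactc
H2-Aa: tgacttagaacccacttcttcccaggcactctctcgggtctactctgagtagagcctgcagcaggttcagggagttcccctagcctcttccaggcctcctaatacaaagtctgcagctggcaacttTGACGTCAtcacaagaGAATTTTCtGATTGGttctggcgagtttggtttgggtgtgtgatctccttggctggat
*H2-K1* and *H2-Q10* hold GAANNGAAA on the strand opposite to the printed run, 90 and 155 bases before the start, and *H2-K1* holds TGACG at 41 bases. *H2-Aa* holds TGACG at 74 and, on the other strand, at 71 bases, GAANNTTC at 58 and GATTGG at 49.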

How the data were processed

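Polyadenylated RNA from distal colon of 8 mice was measured. Per the study's methods and the labels, SENSE mRNA-seq libraries were sequenced on an Illumina NovaSeq, and the authors aligned reads to mm10 with STAR. The deposited table holds raw read counts per gene symbol, none of its genes with fewer than 6 counts in all samples; the counting program, annotation and strand are not given in the sources used here, and the authors' normalized counts were not used. Members and gene lists were chosen with earlier results of these data known. Counts were scaled by TMM, the 14371 of 15859 genes whose normalized counts averaged more than 5 were tested, and 1 quasi-likelihood model with 4 group means was fitted (edgeR 4.0.16, limma 3.58.1, R 4.3.3), with 5 contrasts: day 15 against day 0 in each genotype, WT against *Hsf1* null at each day, and the interaction. Benjamini-Hochberg adjusted p-values cover all tested genes, and a call needs an adjusted p below 0.05 and a log2 fold change outside -1 to 1. The SE was derived as the absolute log2 fold change divided by the square root of the test's F statistic, and is approximate. Genes named with values are all members outside non-classical class I; of that class *H2-M3*, the 5 with the highest mean CPM and any called; and called genes of the pathway lists. Markers were counted by list. Further genes, such as *Ifng* and *Ifngr2*, were named after their values were seen. The code was tested on simulated data. Depth, from 2553348 to 12440257 counts, limits members with few counts: 13 members had at least 100 counts in every sample and 11 had under 10 in some. With 2 mice against 2, an exact two-sided permutation test cannot give a p below 0.333, so tests rest on the model over all genes. Alternatives were DESeq2 1.42.0, its size factors in edgeR, no filter, edgeR's own filter, no fold threshold, a replicate block, only the groups compared, thinning to the smallest library and leaving out each mouse.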

Additional observations from a re-analysis of the deposited data

How the results depend on the processing

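The counts of called members, 3 in WT from day 0 to day 15, 11 in *Hsf1* null mice and 2 between genotypes at day 15, depended on single mice. Leaving out 1 mouse at a time gave 0 to 11 in WT, 0 to 11 in *Hsf1* null mice and 0 to 2 between genotypes, and leaving out both of the smallest libraries, an alternative added after the data were seen, gave 0 in each of the 3; such fits assume that a lone mouse varies like the other groups. DESeq2 gave 14, 14 and 3. With only the groups compared the count between genotypes at day 15 was 0, and thinned to the smallest library it was 1. At day 0 and for the interaction the count was 0 in every setting. Over 18 settings, the 16 called results kept their direction in 288 of 288 cases and their call in 203, with 85 lost; of 2644 cases of the 149 uncalled results, 157 changed sign and 30 became called. The median change of non-classical class I in *Hsf1* null mice, 0.28, was -0.53 without *Hsf1* null day 15 replicate 1 and at most 0.79 without any other single mouse, and the median class II difference between genotypes at day 15, 0.91, was -0.016 without WT day 15 replicate 2 and at most 1.44 without any other; the cause was not tested.

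With a replicate block that paired mice by number the counts were 3 in WT, 7 in *Hsf1* null mice and 1 between genotypes at day 15; same-numbered mice are different animals. With the WT day 0 mice exchanged in the block, added after the data were seen, they were 4, 12 and 2.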
